A study of Mus musculus with 7 samples.

Results

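The miR-203 hairpin gives a pair of mature miRNAs, listed as mmu-miR-203-3p and mmu-miR-203-5p, and both are described here across 7 small RNA libraries of mouse hepatocytes. They are 2 of the 1966 mature miRNA names in the deposited counts, taken by name. They were selected on their counts per 1000000 summed miRNA reads (CPM) in ALAS12-KO and WT, which were already known, so their values in that contrast are a description and carry no test.

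ALAS12-KO gave 4 libraries and WT gave 3. In both groups the labels give hepatocytes from liver and the treatment TMX, whose meaning they do not spell out. The sources used here give no strain, age or allele behind the genotype label, and do not say whether replicates were separate animals. ALAS is 5-aminolevulinate synthase, which makes the first intermediate of heme. Alas1 is its general form and Alas2 its erythroid form, and the series asks how ALAS bears on small RNAs. Cells came from collagenase-perfused livers by low-speed centrifugation, which enriches hepatocytes without removing every other cell type.

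A miRNA hairpin is cut by Drosha and then by Dicer into a short duplex, of which 1 strand is loaded into an Argonaute protein as the guide and the other is mostly discarded. The guide pairs with target mRNAs mainly through its seed, bases 2 to 8. miR-203 is best known from mouse skin, where it is induced as keratinocytes leave the stem cell layer and represses the transcription factor p63. In human liver it has been described as a tumour suppressor silenced by DNA methylation in hepatocellular carcinoma.

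The sequences of both arms, from RefSeq on GRCm38.p6, are shown because they set which strand and which seed the reads belong to. Capitals mark the seed.
miR-203-3p: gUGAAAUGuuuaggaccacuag
miR-203-5p: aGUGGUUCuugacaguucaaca

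Both members matched the RefSeq table by name. The hairpin that holds them has 76 bases, and capitals mark the 5p arm, at bases 10 to 31, and then the 3p arm, at bases 48 to 69.
Mir203 hairpin: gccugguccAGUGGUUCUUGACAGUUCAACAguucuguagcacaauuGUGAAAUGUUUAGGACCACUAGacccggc

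Mir203 lies on the plus strand of chromosome 12 at 112130880 to 112130955 (GRCm38). The GENCODE M21 annotation places no other gene over it, so it is neither exonic nor intronic of a host. The nearest protein-coding genes are Aspg, an asparaginase gene that ends 3321 bases before it, and Kif26a, a kinesin family gene that starts 15253 bases after it. The mature 3p arm lies at 112130927 to 112130948 and the 5p arm at 112130889 to 112130910. The RefSeq table holds 1679 mature names, and 0 others share the seed of either arm or lie within 3 edits of its sequence. The nearest sequence to miR-203-3p, miR-203b-3p, is 6 edits away. miR-203-3p begins with G, as 12.8% of the 1679 names do, where 40.9% begin with U.

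A second miRNA, miR-203b, is annotated from the opposite strand of the same hairpin, so its counts are set beside those of miR-203. It is not a member and was singled out after its values were seen. Its sequences are shown because each of its arms overlaps an arm of miR-203 by 20 bases on the other strand. Capitals again mark the seed.
miR-203b-3p: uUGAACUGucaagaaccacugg
miR-203b-5p: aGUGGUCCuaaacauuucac

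**Figure D1:**
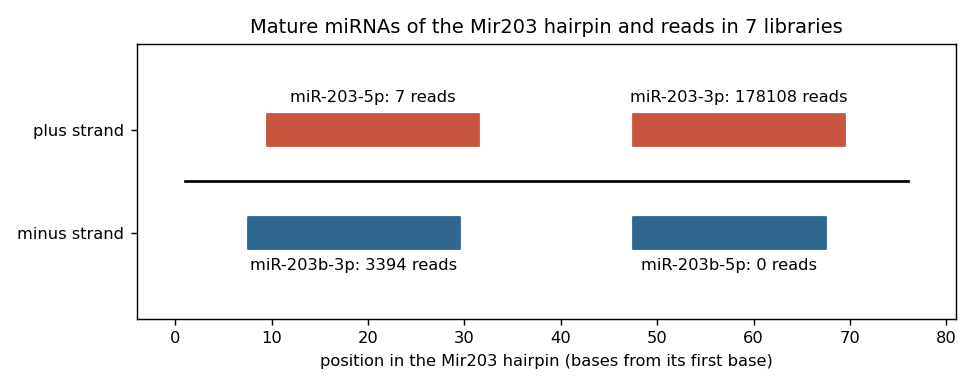
Map of the Mir203 hairpin with its mature miRNAs, drawn to scale along the hairpin in bases from its first base. Bars above the line are plus-strand miRNAs and bars below it minus-strand ones, each with its reads summed over 7 libraries. The 3p arm of the plus strand holds 178108 reads and the 5p arm 7, while miR-203b-3p holds 3394 on the minus strand.

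Over the 7 libraries 178108 reads were counted for miR-203-3p and 0 for miR-203b-5p, which covers the same bases on the other strand. At the other arm 7 reads were counted for miR-203-5p and 3394 for miR-203b-3p. The deposited entry for reads that match more than 1 feature held only 156 to 318 reads per library over all miRNAs. The counts at this hairpin were thus kept apart between overlapping arms. These arms do not share both ends, so reads could be kept apart by position as well as by strand. The sources used here do not give the counting settings, and which of these was used was not tested.

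miR-203-3p, the guide strand, was a moderately abundant miRNA of these hepatocytes and, as CPM, stood higher in every ALAS12-KO library than in any WT library. It had 26645, 21104, 31999 and 31043 reads in ALAS12-KO replicates 1 to 4, against 23932, 32485 and 10900 reads in WT replicates 1 to 3. This was 2023, 2091, 1872 and 1895 CPM in ALAS12-KO, against 1493, 1479 and 1412 CPM in WT. The groups did not overlap, and the lowest ALAS12-KO library stood 1.25 times above the highest WT library. The mean was 1970 ± 104 CPM in ALAS12-KO (SD, n = 4) and 1462 ± 43.5 CPM in WT (SD, n = 3), a ratio of 1.35.

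Counting error was small beside this gap. The 95% Clopper-Pearson interval of the highest WT library, replicate 1, was 1475 to 1513 CPM, and that of the lowest ALAS12-KO library, replicate 3, was 1852 to 1893 CPM. In the shallowest library, WT replicate 3, it was 1386 to 1439 CPM. Such intervals cover counting error only, since the tables hold no molecular identifiers. By level, miR-203-3p ranked between 30 and 36 of all names in the ALAS12-KO libraries and between 38 and 39 in the WT libraries.

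Of the 450 miRNAs that passed the low-count filter, 24 (5.33%) had every ALAS12-KO library above every WT library on this scale and 69 (15.3%) had every one below. miR-203-3p is among the 24. Nothing is read from its place there, since the arm was chosen in this contrast.

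Libraries of 1 group lay close together for miR-203-3p on the CPM scale. The coefficient of variation was 5.29% in ALAS12-KO and 2.97% in WT. The pooled within-group SD of log2 CPM was 0.065, against a median of 0.18 over the 106 tested miRNAs with a mean of at least 100 CPM. Of those 106, 11 had a smaller one, so miR-203-3p was not alone in this. Among the 11 were miRNAs named below as most like it in profile. These were miR-30e-5p at 0.036, miR-30a-5p at 0.038, miR-30e-3p at 0.052 and miR-30a-3p at 0.056, while miR-30c-5p had a larger one, 0.084.

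**Figure D2:**
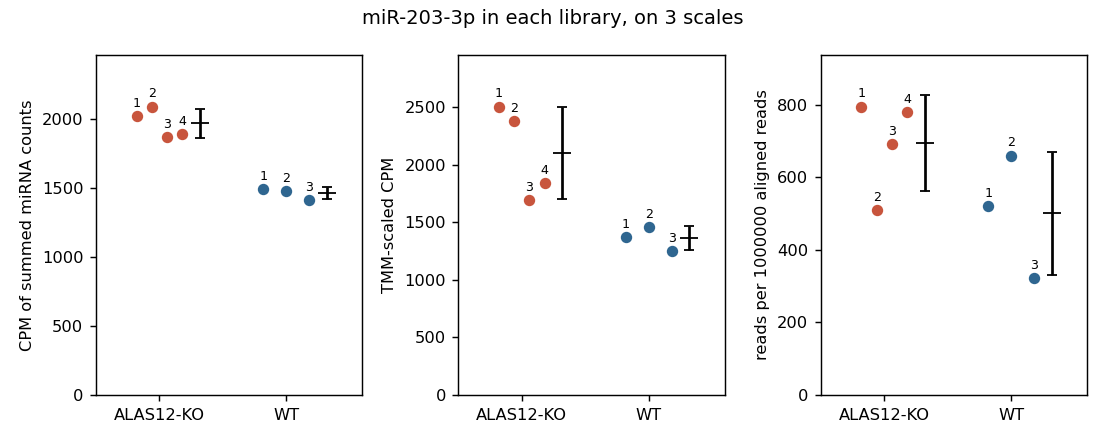
miR-203-3p in each library, with ALAS12-KO left of WT, as CPM of summed miRNA counts, TMM-scaled CPM and reads per 1000000 aligned reads. Points are libraries with their replicate number, and bars are mean ± SD. On the first scale ALAS12-KO runs from 1872 to 2091 and WT from 1412 to 1493, while on the third the groups overlap.

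The scale decided how tight the groups looked and, for 1 scale, whether they overlapped. TMM scaling, which sets libraries to a common level by the trimmed bulk of miRNAs, gave 2106 ± 398 TMM-scaled CPM in ALAS12-KO (SD, n = 4) and 1362 ± 103 in WT (SD, n = 3). ALAS12-KO then ran from 1692 to 2508 and WT from 1253 to 1457, without overlap, as 49 (10.9%) of the 450 tested miRNAs did in this direction. The TMM factors ran from 0.806 in ALAS12-KO replicate 1 to 1.11 in ALAS12-KO replicate 3, against 1.02 to 1.13 in WT.

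Without miR-122-5p, the liver miRNA that took 53.5% to 61.5% of miRNA reads in ALAS12-KO and 57.1% to 59.4% in WT, the groups still did not overlap. miR-203-3p then had 4693 ± 615 CPM in ALAS12-KO (SD, n = 4) and 3471 ± 177 CPM in WT (SD, n = 3). Set directly against miR-122-5p within each library, it had 3.42 ± 0.106 reads per 1000 miR-122-5p reads in ALAS12-KO (SD, n = 4) and 2.53 ± 0.0758 in WT (SD, n = 3), again without overlap. The share of all tested miRNAs that were separated on these scales was not counted. This separation carries no weight of its own, since the arm was chosen in this contrast.

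Relative to all aligned reads the groups overlapped. miR-203-3p had 795, 509, 692 and 780 reads per 1000000 aligned in ALAS12-KO replicates 1 to 4, against 520, 660 and 323 in WT replicates 1 to 3. The lowest library of each group on this scale was also the one with the smallest miRNA share of aligned reads, 24.4% in ALAS12-KO replicate 2 and 22.8% in WT replicate 3. The other libraries had 37.0% to 41.2% in ALAS12-KO and 34.8% to 44.6% in WT. Whether a library holds more miR-203-3p or fewer other miRNAs cannot be told apart from such relative counts, and in bulk samples neither can more cells of a type and more RNA per cell.

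The log2 fold change of miR-203-3p from edgeR's fit to all 450 miRNAs was 0.63 ± 0.17 (SE) with TMM factors, and 48 (10.7%) of those miRNAs had a larger one. Over all tested miRNAs the median log2 fold change was 0.06, so miR-203-3p stood 0.57 above it. With library totals the log2 fold change was 0.43 ± 0.07 and the median of all miRNAs −0.12, which put miR-203-3p 0.55 above the median. A change of scaling factors shifts the log2 fold changes of all miRNAs nearly alike. The small move of this position between the scalings therefore follows from the measure and is no separate result. The edgeR test called 0 of 450 miRNAs (0%) at an adjusted p under 0.05, with 84 at an unadjusted p under 0.05. limma-voom called 0 and DESeq2 called 21.

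Against the 10 most abundant miRNAs 1 at a time, a ratio that needs no scaling, miR-203-3p was higher in every ALAS12-KO library than in any WT library for 9 of the 10. The differences of mean log2 ratio ran from −0.15 to 1.28. The exception and lowest value was the ratio to miR-21a-5p, a miRNA of injured and growing tissue, for which the groups overlapped. How many of the other tested miRNAs are as separated from these 10 was not counted. Nothing is read from the 9 of 10, since the arm was chosen in this contrast.

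miR-203-5p, the passenger strand, was close to undetectable in both genotypes. It had 0, 1, 3 and 1 reads in ALAS12-KO replicates 1 to 4, against 1, 0 and 1 reads in WT replicates 1 to 3. The groups overlapped, no library had more than 3 reads, and the arm did not pass the low-count filter, so no fold change is given. Read as up to 3 counts, the 0 of ALAS12-KO replicate 1 allows a share of up to 0.0113% of the reads of both arms, and the 0 of WT replicate 2 up to 0.00924%. The upper bounds of the two-sided 95% Clopper-Pearson intervals were 0.0138% for ALAS12-KO replicate 1 and 0.0114% for WT replicate 2.

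Of the reads of both arms, 5 of 110796 in ALAS12-KO and 2 of 67319 in WT were from the 5p arm. That is 0.00451% in ALAS12-KO (95% Clopper-Pearson interval 0.00147% to 0.0105%) and 0.00297% in WT (0.00036% to 0.0107%). These intervals cover the counting error of pooled reads and not the spread between libraries. Of the 5 reads in ALAS12-KO, 3 came from replicate 3, and no comparison of the genotypes is read from so few reads. Pooled over the 7 libraries the share was 7 of 178115, or 39.3 reads per 1000000 reads of both arms.

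Arms were paired only where their names are the same apart from 5p and 3p. Hairpins with locus-numbered arms, such as miR-16-5p with miR-16-1-3p and miR-16-2-3p, were left out and their shares not computed. Among the 74 paired hairpins with a mean of at least 100 CPM for the more abundant arm, miR-203 had the smallest share of the other arm. The median over these hairpins was 0.988%. The next of these 74, miR-23a, had 6 reads of miR-23a-5p against 92590 of miR-23a-3p. That is 64.8 reads per 1000000, which lies inside the counting interval of miR-203. The 100 CPM limit was chosen after the data were seen. With a limit of 1000 CPM miR-203 was again the lowest, of 29 hairpins, and with 10 CPM there were 5 of 138 hairpins with a smaller share.

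**Figure D3:**
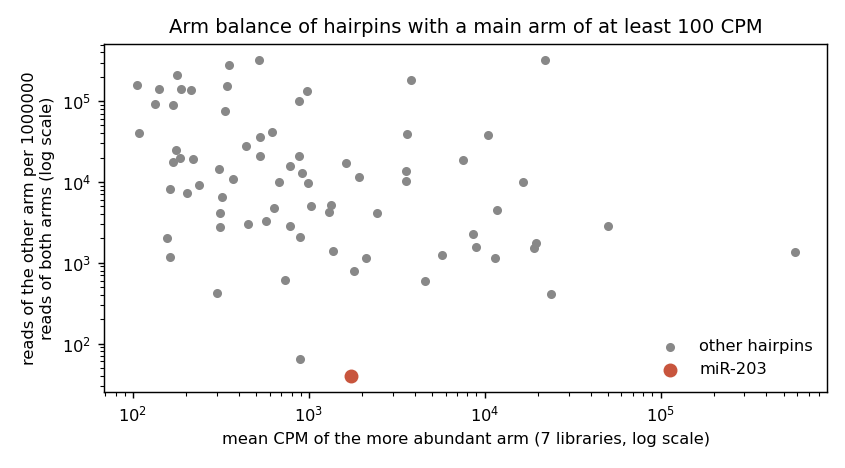
Arm balance of 74 hairpins, summed over 7 libraries: the mean CPM of the more abundant arm (x, log scale) against the reads of the other arm per 1000000 reads of both (y, log scale). Each point is a hairpin. miR-203, in red, is the lowest at 39.3 per 1000000, with miR-23a next at 64.8.

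On the opposite strand, miR-203b-3p had 471, 343, 612 and 559 reads in ALAS12-KO replicates 1 to 4, against 530, 677 and 202 reads in WT replicates 1 to 3. As CPM it stood at 34.9 ± 1.00 in ALAS12-KO (SD, n = 4) and 30.0 ± 3.52 in WT (SD, n = 3). The lowest ALAS12-KO library was 1.03 times the highest WT library, and 24 (5.33%) of the 450 tested miRNAs were separated in this direction. The log2 fold change of miR-203b-3p was 0.40 ± 0.20 with TMM factors (edgeR adjusted p = 0.283) and 0.22 with library totals. The groups overlapped when miR-122-5p was left out of the total, relative to miR-122-5p and relative to all aligned reads. For every 1000 reads of miR-203-3p there were 16.3 to 19.1 reads of miR-203b-3p in ALAS12-KO and 18.5 to 22.1 in WT. These ranges overlapped, so the balance of the strands was not separated between the genotypes.

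The annotated miRNA hairpins on either side are Mir3073a, 21558 bases before Mir203, and Mir6939, 528322 bases after it. miR-3073a-3p was rare, at a mean of 7.17 CPM in ALAS12-KO and 5.89 CPM in WT. miR-6939-3p had at most 1 read in any library and miR-6939-5p had 0.

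The miRNAs whose profile over the 7 libraries was most like that of miR-203-3p all belonged to the miR-30 family. Likeness was measured as the root mean square difference of log2 levels, each centred on its own mean, over the other 221 tested miRNAs with a mean of at least 10 CPM. This difference does not change with the scaling factor of a library. It was 0.05 for miR-30e-5p, 0.06 for miR-30e-3p, 0.09 for miR-30c-5p, 0.09 for miR-30a-3p and 0.13 for miR-30a-5p. Their log2 fold changes ran from 0.42 ± 0.12 for miR-30a-5p to 0.72 ± 0.18 for miR-30e-3p. The difference between the genotypes is part of each profile, so a like fold change is part of the measure and no separate result.

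Neighbours in level had log2 fold changes on both sides of 0. Just above miR-203-3p, at a mean of 1752 CPM over the 7 libraries, stood miR-125b-5p at 1768 CPM, with a log2 fold change of −0.23 ± 0.14. Next were miR-34a-5p, a p53 target, at 1815 CPM and 1.10 ± 0.19, and miR-30d-5p at 1944 CPM and 0.31 ± 0.12. Just below stood let-7d-5p at 1636 CPM and 0.13 ± 0.12, miR-7a-5p at 1504 CPM and 0.09 ± 0.16, and miR-130a-3p at 1383 CPM and 0.08 ± 0.16. These 3 small values changed sign with library totals, to −0.05, −0.10 and −0.11. By edgeR 0 of these 6 passed the adjusted threshold.

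Epithelial miRNAs other than miR-203 had fold changes on both sides of 0, and 0 of the 11 listed, all tested, passed the edgeR threshold in either direction. With 3 positive and 8 negative values, their median log2 fold change was −0.09, against 0.06 over all tested miRNAs. Of the miR-200 family, which keeps epithelial identity by repressing Zeb1 and Zeb2, the members of the chromosome 4 cluster had the lowest values. These were −1.31 ± 0.27 for miR-200a-3p, −1.30 ± 0.29 for miR-200b-3p and −1.27 ± 0.27 for miR-429-3p, each with every ALAS12-KO library below every WT library as TMM-scaled CPM, as for 42 (9.33%) of the 450.

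The other miR-200 members had −0.10 ± 0.18 for miR-141-3p and −0.07 ± 0.28 for miR-200c-3p. The miR-183 cluster, known from sensory epithelia, had positive values, at 0.70 ± 0.34 for miR-183-5p, 0.80 ± 0.26 for miR-96-5p and 0.69 ± 0.33 for miR-182-5p. As TMM-scaled CPM the groups overlapped for each of these. As CPM of summed counts they did not overlap for miR-96-5p, at 39.1 to 64.6 CPM in ALAS12-KO and 26.6 to 36.8 CPM in WT. On that scale 24 (5.33%) of the 450 tested miRNAs were separated in this direction, and miR-183-5p and miR-182-5p still overlapped. miR-31-5p, a miRNA of skin and other epithelia, had −0.09 ± 0.17, and miR-375-3p, of islet and gut cells, had −0.55 ± 0.46 at about 1 CPM.

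**Figure D4:**
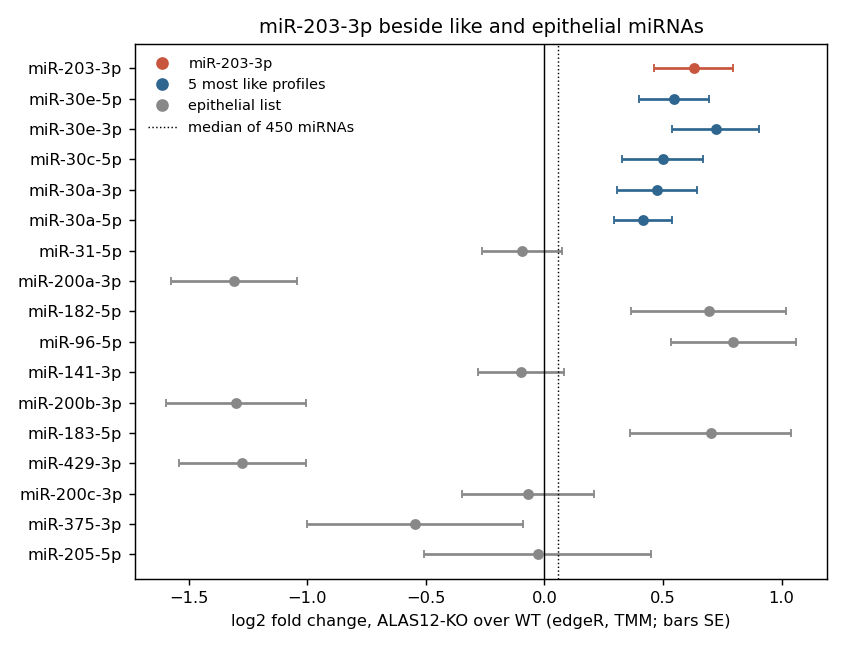
log2 fold changes of ALAS12-KO over WT with SE bars, from edgeR with TMM factors, for miR-203-3p (red), the 5 miRNAs of most like profile (blue) and the 11 epithelial miRNAs (grey). The dotted line is the median of the 450 tested miRNAs, 0.06. miR-203-3p lies at 0.63 and miR-200a-3p, miR-200b-3p and miR-429-3p near −1.3.

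Markers of keratinocytes, the cells in which miR-203 is best known, were set beside it. miR-205-5p, the defining miRNA of stratified epithelia, had 5, 5, 27 and 10 reads in ALAS12-KO and 13, 25 and 4 reads in WT. miR-205-3p had 0 reads in all 7 libraries. miR-31-5p made up most of the summed level of the 4 keratinocyte markers, 470 to 702 CPM in ALAS12-KO and 641 to 776 CPM in WT. The groups overlapped in this summed level. miR-31-3p, the rarer arm of the miR-31 hairpin, had 26.4 to 38.1 CPM in ALAS12-KO and 22.7 to 26.0 CPM in WT. These did not overlap, as for 24 (5.33%) of the 450 tested miRNAs in this direction on this scale. The log2 fold change of miR-31-3p was 0.52 ± 0.22 with TMM factors (edgeR adjusted p = 0.264).

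Of the markers of other liver cells edgeR called 0. Their signs are from the fit with TMM factors, in which 198 of all 450 miRNAs (44%) had a negative log2 fold change. Their sums are CPM of summed miRNA counts. On that scale 69 (15.3%) of the 450 miRNAs had every ALAS12-KO library below every WT library, and 24 (5.33%) every one above. The same share for sums of several miRNAs was not counted. The 5 cholangiocyte markers, of bile duct cells, summed to 54.4 to 105 CPM in ALAS12-KO and 139 to 243 CPM in WT, without overlap. All 5 log2 fold changes were negative, but those of miR-141-3p (−0.10 ± 0.18) and miR-200c-3p (−0.07 ± 0.28) were smaller than their SE. The most abundant member was miR-200a-3p. The 4 red cell markers summed to 9.11 to 20.3 CPM in ALAS12-KO and 20.5 to 27.2 CPM in WT, also without overlap and with all 4 negative, and their most abundant member was miR-451a. The endothelial markers miR-126a-3p and miR-126a-5p summed to 10959 to 36485 CPM in ALAS12-KO and 35562 to 52472 CPM in WT, both negative.

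For leukocytes, led by miR-142a-3p, 6 of 6 markers were negative, at 2932 to 9772 CPM in ALAS12-KO and 8010 to 10756 CPM in WT. For mesenchymal cells, led by miR-143-3p, 5 of 6 were negative, at 1575 to 5771 CPM in ALAS12-KO and 4198 to 7023 CPM in WT. Of the 9 hepatocyte markers 8 were tested, all with positive values except miR-122-5p under library totals (−0.0046), and they summed to 606797 to 693338 CPM in ALAS12-KO and 633888 to 661975 CPM in WT. ALAS12-KO replicate 1 had the lowest endothelial, leukocyte, mesenchymal, cholangiocyte and red cell sums of all 7 libraries. The part of these cells in the miR-203-3p values was not tested. Without ALAS12-KO replicate 1 the log2 fold change of miR-203-3p was 0.51 ± 0.14.

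**Figure D5:**
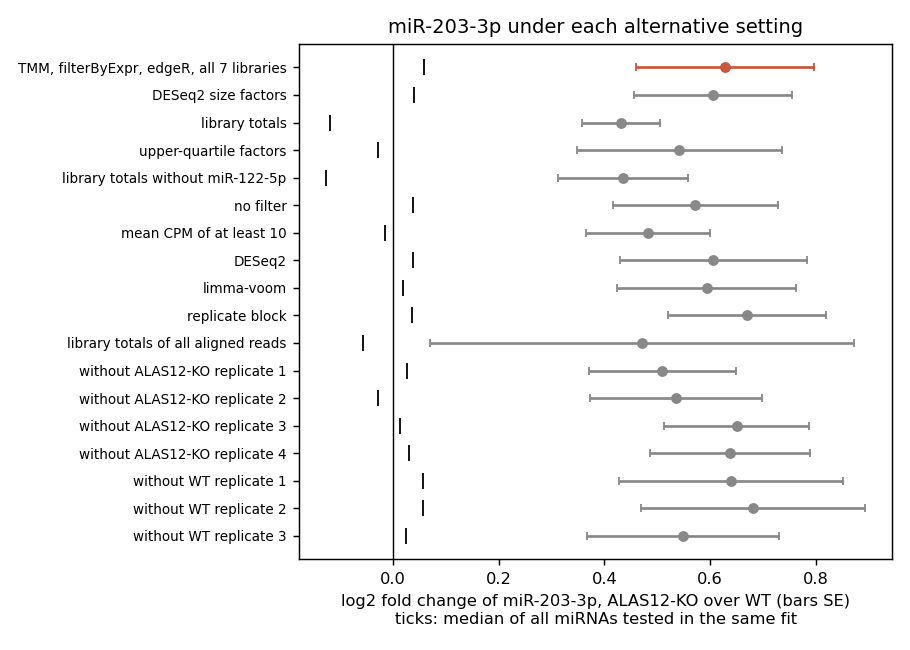
The log2 fold change of miR-203-3p, ALAS12-KO over WT, with SE bars, under the chosen setting (red) and 17 alternatives (grey). Ticks mark the median log2 fold change of all miRNAs in the same fit. Every value lies between 0.43 and 0.68, to the right of its tick.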

How the data were processed

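For every library the authors deposited raw, unnormalised counts of reads by mature miRNA, to judge by their whole-number values. The submitters' processing notes name cutadapt, limma and the builds mm10 and hg38, without role or version. The sources used here do not state which aligner, counter or miRNA annotation was used. The 5 summary entries of each table, named as htseq-count names them, entered neither library sizes nor tests. Their share of the counted reads was 50.9% to 73.7% for reads aligned outside miRNAs and 4.54% to 8.00% for unaligned ones. The total miRNA count was 7719180 to 21962191 reads per library. No pair of libraries of 1 group agreed within sampling noise, the lowest chi-square over its degrees of freedom being 97.4, so each was counted as 1 sample.

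Levels are CPM of summed miRNA counts unless named otherwise. Fold changes, ALAS12-KO over WT, came from edgeR 4.0.16 in R 4.3.3 (robust quasi-likelihood fit with TMM factors after filterByExpr at a minimum of 10 reads, Benjamini-Hochberg adjustment over 450 miRNAs, threshold 0.05), tested on simulated data. Replicates may be technical, in which case the p-values reflect technical spread alone. A count of 0 was read as up to 3 counts. Positions are from GENCODE M21 and RefSeq, read with Python 3.11.15.

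The members, the marker lists and the tests were chosen with earlier results of these data known. Named are the members, the 5 most like profiles, 3 neighbours in level on each side, the epithelial list, the flanking hairpins and the most abundant marker of each cell type. miRNAs outside this rule, such as miR-203b-3p, miR-23a-5p and miR-21a-5p, were chosen after their values were seen. Alternatives were DESeq2 1.42.0, limma-voom (limma 3.58.1), other scalings and filters, the replicate number as a block, and each library left out in turn. The control RNAs that the labels say were added were not analysed here.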

Additional observations from a re-analysis of the deposited data

Results flagged for a closer look

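Of 18 values checked in the 4 ALAS12-KO libraries, 1 had a library far from the others, where chance flags about 1 in 20. miR-203b-3p stood at 8.28 reads per 1000000 aligned reads in ALAS12-KO replicate 2 and at 13.2 to 14.1 in the other ALAS12-KO libraries, a gap of 0.86 of the group's range. miRNA reads made up 24.4% of aligned reads in that library and 37.0% to 41.2% in the others, and as CPM of summed miRNA counts the same libraries ran only from 34.0 to 35.8.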

How the results depend on the processing

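The log2 fold change of miR-203-3p was positive in all 17 alternatives, at 0.43 to 0.68. Each moved by less than the within-group SD of 0.23 (log2 TMM-scaled CPM). On log2 CPM of summed counts that SD was 0.065, smaller than the move from 0.63 to 0.43 with library totals. With totals of all aligned reads the value was 0.47 ± 0.40 (SE). Leaving out each library gave 0.51 to 0.68. Relative to the median of all miRNAs in the same fit it was 0.48 to 0.64, and library totals moved that median by −0.18. miR-203-5p had too few reads for a fold change or a log2 arm ratio, so the alternatives planned for these were not run; leaving out each library, added after the data were seen, gave 27.4 to 48.1 reads per 1000000 of both arms. The count of called miRNAs, 0 of 450 with edgeR, was 2 of 450 with library totals, 21 of 450 with DESeq2 and 13 of 1302 with no filter. With a library left out it was 0 to 1 of the 430 to 457 tested, with 45 to 101 at unadjusted p under 0.05. Positive values made up 54.8% of miRNAs at that unadjusted p under TMM, against 32.9% under upper-quartile factors, 27.3% under library totals and 21.3% under totals without miR-122-5p. The cause was not tested. Replicate numbers showed no sign of pairing the libraries, though so few libraries cannot settle whether they mark pairs. Deviations from the group means correlated at −0.02, −0.42 and −0.02 for numbers 1 to 3. Of the 3 WT libraries, 0 correlated best with its own number. With a replicate block the log2 fold change was 0.67 and the count 0, with 60 at unadjusted p under 0.05. The depth limits statements on miR-203-5p, at no more than 3 reads per library, and not those on miR-203-3p.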
